A study of Mus musculus with 2 samples.

Results

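Cytoplasmic ribosomal protein genes were examined in Baf53a-deficient mouse ES cells that were kept alive by either Baf53a or Baf53b. Gene probes were taken as members when their RefSeq accession mapped to a symbol starting with Rpl or Rps followed by a digit, or to Rplp0, Rplp1, Rplp2 or Rpsa. The kinases named Rps6k, Rps19bp1, Rps27l and symbols with -ps were left out. This rule found 174 of 39411 gene probes, for 86 of the 20823 genes that could be named. Of the 86 genes, 53 belonged to the large subunit (111 probes) and 33 to the small subunit (63 probes). All 86 genes had at least 1 probe well above background on both arrays.

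RNA came from Baf53a cKO ES cells transfected with an expression vector for Baf53a (Baf53a-expressing) or for Baf53b (Baf53b-expressing), with 1 array of each. Both groups derive from E14 ES cells and from a single clone with deletions of 7 bp and 23 bp in the alleles of Baf53a and with a CRISPR/Cas9-resistant Baf53a transgene under the control of tetracycline (Tet). Both were grown with LIF, and 1 μg/mL Tet, which shuts off the transgene, was given for 6 days from 48 h after transfection. The comparison therefore asks how RNA levels differ when Baf53b takes the place of Baf53a. Since each condition had 1 array, there was no replicate and nothing was tested, and every value describes this pair of arrays.

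The ribosome is the particle that translates mRNA into protein. Its small subunit reads the mRNA, and its large subunit joins the amino acids and passes the growing chain through an exit tunnel. Each ribosomal protein is usually needed in a single copy per particle, and ES cells, which divide fast, transcribe these genes strongly. Many of their mRNAs begin with a C followed by a run of C and U, called the 5′ TOP, through which mTOR signalling sets their translation. Free ribosomal proteins such as Rpl5 and Rpl11 bind Mdm2 and thereby stabilise p53.

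The start sites were read from the RefSeq promoter table (GRCm38.p6), which held 76 starts for 65 of the 86 genes. At its annotated start, 14 of the 65 genes (21.5%) had a C followed by at least 4 letters that were each C or T, against 3.01% of all 27025 genes in the table. The annotated start can lie some bases off the real one. The 30 bases around the start, 15 on each side and on the strand of the gene, are shown for the genes at both ends of the range of differences that have an entry, since these genes differ most from each other. Rps24, with 2 annotated starts, is not shown. Capitals mark the run at the start where it is present.
Rpl28, chr7:4792950-4792979, plus strand: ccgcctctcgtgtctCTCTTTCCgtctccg
Rpl32l, chr10:20208424-20208453, plus strand: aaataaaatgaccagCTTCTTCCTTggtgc
Rps15, chr10:80292416-80292445, plus strand: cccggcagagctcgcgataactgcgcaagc
Rpl31, chr1:39367836-39367865, plus strand: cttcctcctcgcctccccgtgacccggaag
Rpl7l1, chr17:46782642-46782671, minus strand: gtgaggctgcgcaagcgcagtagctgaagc
Rpl35, chr2:39005117-39005146, minus strand: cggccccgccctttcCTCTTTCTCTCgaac
Rps10, chr17:27635230-27635259, minus strand: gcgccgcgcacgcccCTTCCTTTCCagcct
Rpl37a, chr1:72711245-72711274, plus strand: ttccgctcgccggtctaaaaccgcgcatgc

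The run was present at the low end (Rpl28, Rpl32l) and at the high end (Rpl35, Rps10) of the differences, and absent from other genes at both ends.

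The labels and the cells were checked first. Actl6b, which encodes Baf53b, had a probe not well above background where Baf53a was expressed and was at least 14.5-fold higher where Baf53b was expressed, a bound set by the lowest signal well above background on the other array. Actl6a, the gene of Baf53a, had signals of 3806 and 3600, in the order Baf53a- and Baf53b-expressing, which is kept for all pairs of signals below. At a difference of -0.038 this probe does not tell the cells apart, so the label of the Baf53a-expressing cells was not borne out by it. Whether it reads the RNA of the vector is not given in the sources used here. All 8 markers of ES cells were well above background on both arrays, with summed signals of 358299 and 336332 and Dppa5a as the brightest. Their differences, Baf53b- minus Baf53a-expressing on the log2 scale, were -0.15 for Esrrb, -0.13 for Pou5f1, -0.11 for Zfp42, -0.065 for Nanog, -0.040 for Klf4, -0.016 for Tdgf1, 0.019 for Dppa5a and 0.068 for Sox2. Below 0 were also 50.8% of all named genes and 80.5% of the other bright genes, a set described further on. All 4 markers of primitive endoderm were also seen, with summed signals of 1706 and 1957 and Gata6 as the brightest. Each of their probes was higher in Baf53b-expressing cells, by 0.20 to 0.40. Of all named genes, 12.7% were at least 0.2 higher. Whether the cells differed in state was not tested. Of 5 fibroblast markers, 3 were seen in Baf53a- and 4 in Baf53b-expressing cells, with summed signals of 1372 and 1279 and Thy1 as the brightest, while Postn was not well above background on either array. Thy1 was lower in Baf53b-expressing cells (-0.15), and Col1a1 (0.036) and Col1a2 (0.22) were higher. The part of other cells in the values of the ribosomal protein genes was not tested.

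The processed signal is the brightness of a spot after background subtraction. It is not a number of molecules, and brightness was not compared between genes as a level of RNA. The member probes were bright: they made up 0.441% of the probes and carried 11.5% of the summed signal of gene probes on each array (11.53% in Baf53a- and 11.54% in Baf53b-expressing cells). Of the 86 genes, 81 lay in the brightest 10% of the 16608 named genes measured on both arrays. No gene spot was saturated on either array. The brightest member probe, of Rpl41, a very short large subunit protein, gave 444321 in Baf53a-expressing cells. In Baf53b-expressing cells the brightest was a probe of Rplp0, at 421867. The dimmest of the 86 genes was Rpl3l, the muscle paralog of Rpl3, with 80.3 and 75.8.

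For each gene the log2 signal was averaged over its probes, after the 75th percentile of gene probes on each array, a signal of 1161 and 1127, was set to 0. Differences are Baf53b- minus Baf53a-expressing cells on the log2 scale. The 86 genes had a median difference of -0.059, which is 0.960-fold, with quartiles of -0.089 and -0.016. The lowest was -0.22 and the highest 0.14. None was 2-fold apart, as 0.193% of all named genes were, and 85 of the 86 differed by less than 0.2. At least 0.2 lower was 1 gene, beside 6.85% of all named genes and 4.3% of the other genes in the brightest 10%. None was at least 0.2 higher, beside 12.7% and 2.09%. Most of the genes were slightly lower in Baf53b-expressing cells: 71 of 86 (82.6%) lay below 0, beside 50.8% of all named genes. The share was 80.5% for the other genes in the brightest 10%, whose median was -0.076, so the share among the members was close to that of other bright genes.

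**Figure D1:**
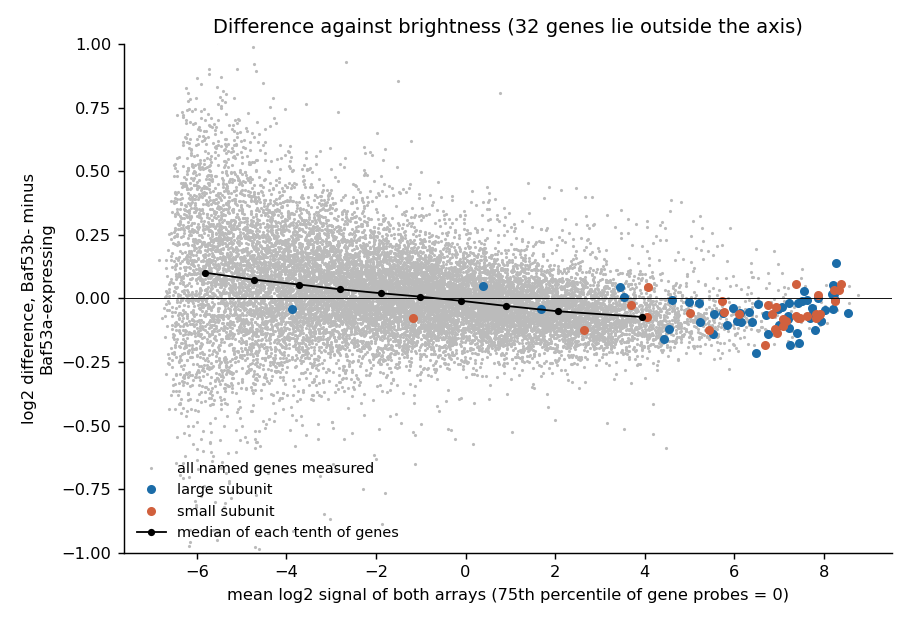
Log2 difference (Baf53b- minus Baf53a-expressing) against the mean log2 signal of both arrays, 1 grey dot per named gene, with the ribosomal protein genes in colour and the median of each 10% of genes as a black line. The line falls from 0.10 in the dimmest 10% to -0.073 in the brightest, and 81 of the 86 members lie in that last 10%.

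The direction of the median was the same in all settings but 1. It stayed below 0 with quantile normalization (-0.019), with arrays centred on the median (-0.11) and with background correction by normexp (-0.047), and it turned to 0.011 under cyclic loess, which levels differences that depend on brightness. Under cyclic loess 31 of the 86 genes lay below 0. The other bright genes were at -0.018 in that setting. The distance between the members and the other bright genes was thus 0.017 as reported, -0.0035 under quantile normalization and 0.028 under cyclic loess.

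**Figure D2:**
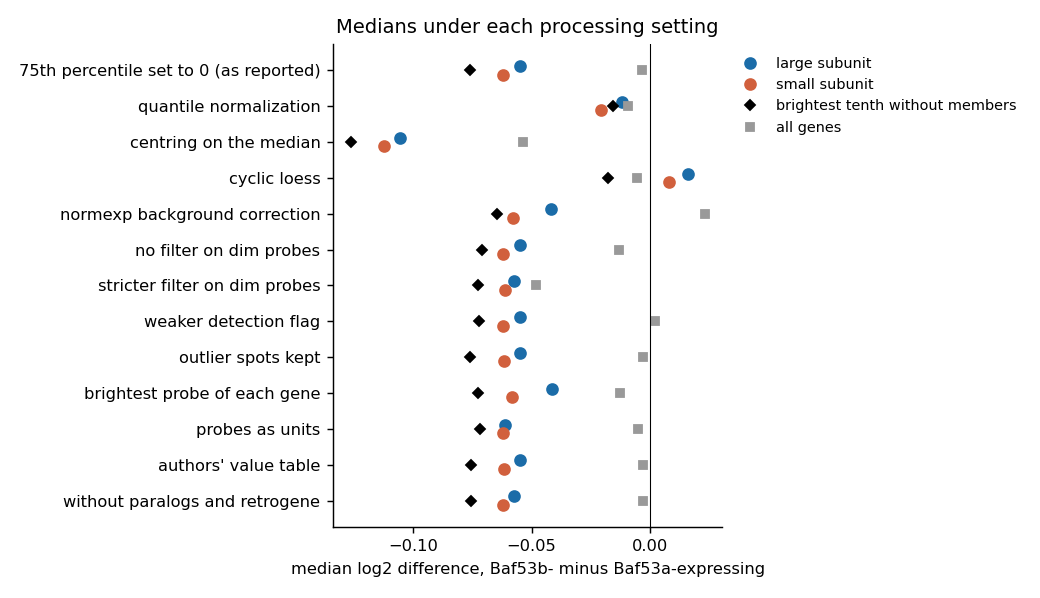
Median log2 difference (horizontal axis) under each processing setting for large subunit genes, small subunit genes, the other genes of the brightest 10% and all named genes. The subunits stay side by side in every setting and move together with the scaling, from -0.11 when centred on the median to above 0 under cyclic loess.

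The SD of the members' differences was 0.062, against 0.099 for the other genes of the brightest 10% and 0.19 for all named genes. In related lists described further on it ran from 0.058 for the mitochondrial ribosomal protein genes in the brightest 10% and 0.062 for translation factors to 0.077 for ribosome-associated genes, 0.080 for RNA polymerase I and III genes, 0.085 for biogenesis factors and 0.096 for growth regulators. In every setting run the SD of the members lay below that of the other bright genes, at 0.056 to 0.072 against 0.099 to 0.11. Most of these other genes were dimmer than the members, with 1447 of 1580 below a mean log2 signal of 6 against 25 of 86 members. Between 6 and 7 the other genes ran from -0.21 to 0.19 and the members from -0.22 to -0.021, between 7 and 8 from -0.19 to 0.11 and from -0.18 to 0.057, and from 8 upwards from -0.097 to 0.055 and from -0.058 to 0.14. Replicate spots give a measure of noise within an array: for 18 probes in the brightest 10% of probes that were printed several times, the SD of a difference between 2 single spots was 0.060. Only 1 member probe was printed more than once. This probe of Rpl23, a large subunit protein that binds Mdm2 when free, had 10 spots on each array, with a log2 SD between spots of 0.052 and 0.057 and a difference of -0.0090 ± 0.024 (SE, spots only). Spot noise leaves out the noise of culture, labelling and hybridisation.

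**Figure D3:**
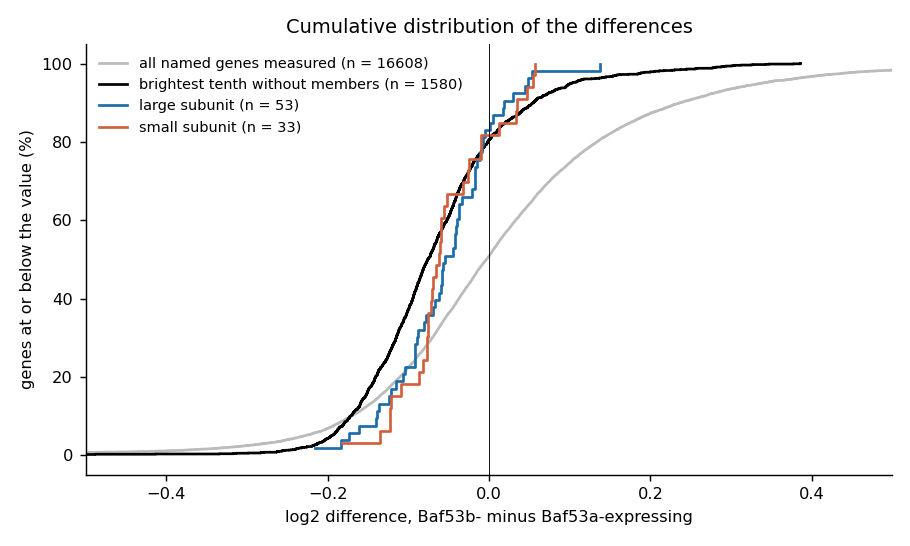
Cumulative share of genes (vertical axis, %) at or below each log2 difference (horizontal axis). The curves of the large and the small subunit rise together and more steeply than that of the other genes in the brightest 10%, and cross 0 at 83.0% and 81.8%.

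Large and small subunit genes were compared next. The 53 large subunit genes had a median of -0.055 (SD 0.066) and the 33 small subunit genes a median of -0.062 (SD 0.057). Below 0 were 44 of 53 (83.0%) and 27 of 33 (81.8%), beside 50.8% of all named genes and 80.5% of the other bright genes. The medians differed by 0.0069 and the means by -0.0014, with the opposite sign. Over the settings the difference of the medians ran from 0.00073 with probes as units to 0.017 with the brightest probe of each gene.

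**Figure D4:**
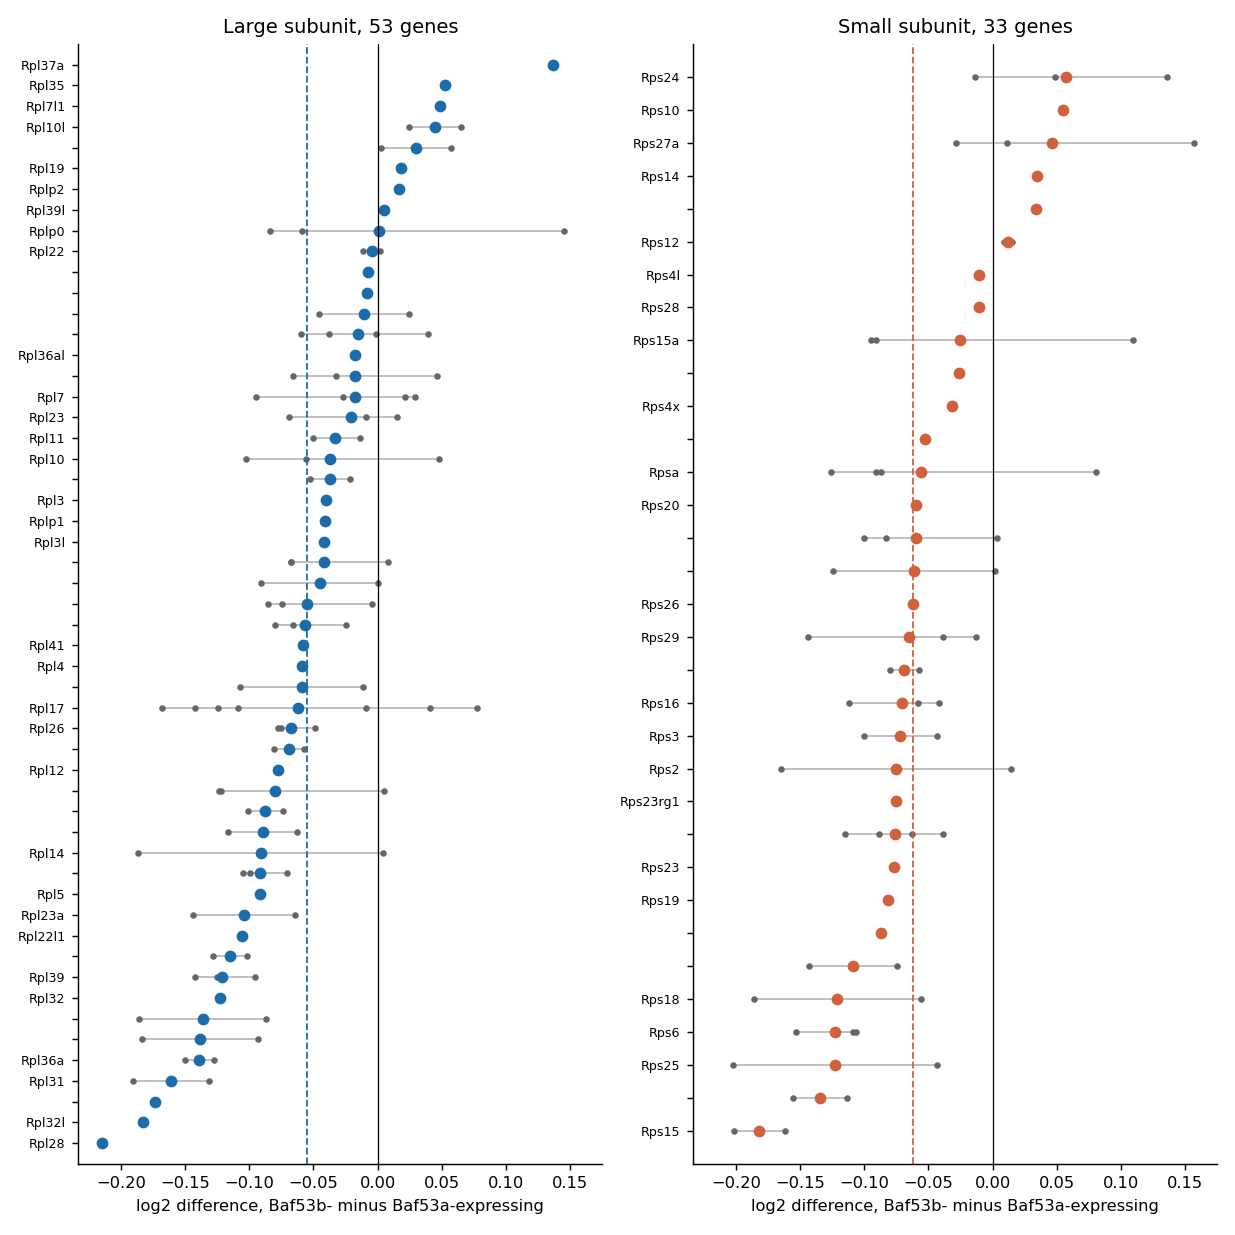
Log2 difference of every member, ordered within each subunit, with gene means as large coloured dots, single probes as small grey dots where a gene has several, and the median of the subunit as a dashed line; names are given for genes described in the text. Rpl28 and Rps15 stand lowest and Rpl37a highest, and the probes of Rpl17 span the most.

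The lowest gene was Rpl28, which encodes a protein of the large subunit found in eukaryotes. Its only probe gave 111787 and 93545, a difference of -0.22 or 0.862-fold. Rpl32l, named for its likeness to Rpl32, followed with 187085 and 160098 (-0.18). Rpl32 itself gave 269235 and 240093 (-0.12). Both were lower in Baf53b-expressing cells, and near-identical sequences can share signal on a probe. Rps15, a protein of the small subunit head near the decoding centre, had 2 probes. These gave 94682 and 79959 for the first and 169935 and 147512 for the second, with differences of -0.20 and -0.16. Here both probes moved alike, which a single probe cannot show. Rpl31, at the rim of the exit tunnel, had 2 probes of very unequal brightness, 197499 and 175101 for one and 3612 and 3073 for the other. Their differences were -0.13 and -0.19, on the same side.

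The highest gene was Rpl37a, a large subunit protein with a zinc finger, at 344623 and 368147 (0.14). It was the only member at least 0.1 higher, beside 25.4% of all named genes and 5.19% of the other bright genes, while 18 members were at least 0.1 lower, beside 22.4% and 37.3%. Under cyclic loess Rpl37a was at 0.22. Rps24 had a mean of 0.057, and its 3 probes gave -0.014, 0.049 and 0.14. Rps10, which sits near the entry of the mRNA and is marked with ubiquitin when ribosomes collide, gave 383250 and 386690 (0.055). Rpl35, at the exit of the tunnel, gave 339003 and 341565 (0.053). Rpl7l1, a relative of Rpl7, gave 1501 and 1508 (0.049).

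Among the brightest members the values lay nearer to 0. The 12 members with a mean log2 signal of at least 8, among them Rps14, Rps28, Rpl19 and Rplp2, had a median of 0.018, and 5 of them lay below 0. The 17 members between 6 and 7 had a median of -0.067 with all 17 below 0, and the 32 between 7 and 8 had -0.070 with 28 below 0. Other genes of the same brightness followed a similar course, with -0.075 for 88 genes between 6 and 7 (70 below 0), -0.068 for 34 between 7 and 8 (25 below 0), and -0.0086 for 11 of at least 8 (6 below 0). Across the 61 members above 6, mean signal and difference were correlated (Pearson's r = 0.50, Spearman's rho = 0.51). Over all 86 members r was 0.037 and rho 0.21. Across all 16608 named genes the sign was the opposite, with r at -0.26 and rho at -0.30. These are correlations across genes of 1 pair of arrays, which share labelling and scanner, and they describe brightness as much as genes.

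The stalk of the large subunit recruits the factors that drive elongation. Of its proteins, Rplp0 had a mean of 0.000965, Rplp1 -0.041 and Rplp2 0.017, and Rpl12 at its base -0.078 (247559 and 227852). The 3 probes of Rplp0 disagreed, at -0.084, -0.059 and 0.15. Rpl5 and Rpl11, which form a particle with the 5S rRNA and bind Mdm2, gave 84750 and 77254 (-0.092) and 158120 and 150116 (-0.033). With Rpl23 at -0.021, all 3 lay slightly below 0, where most bright genes lay. Rpl11 and Rpl23 turned above 0 under cyclic loess (0.042 and 0.051) and quantile normalization (0.017 and 0.036).

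Around the exit tunnel, 7 of 9 genes lay below 0 (77.8%, beside 82.6% of all members and 80.5% of the other bright genes), with a median of -0.062. Rpl4 and Rpl17, whose proteins reach into the tunnel wall, were at -0.059 and -0.062, and Rpl39, also in the wall, at -0.12 with 3 probes from -0.14 to -0.096. On the rim, Rpl23a was at -0.10, Rpl26 at -0.067 and Rpl22 at -0.0046, while Rpl19 (0.019) and Rpl35 lay above 0. With cyclic loess Rpl4 (0.011), Rpl17 (0.0030), Rpl26 (0.0060) and Rpl22 (0.054) turned above 0. In that setting Rpl39 (-0.068), Rpl23a (-0.029) and Rpl31 (-0.10) stayed below 0. In the small subunit, 14 of 18 genes of the head, the path of the mRNA and the decoding centre lay below 0, which is also 77.8%, with a median of -0.068. Rps2 (-0.075) and Rps3 (-0.072) line the entry of the mRNA. Rps23, in the decoding centre, gave 270259 and 248890 (-0.077), and Rps26 and Rps28, at the mRNA exit, were at -0.062 and -0.010. Rps19, the gene most often mutated in Diamond-Blackfan anaemia, gave 162844 and 149451 (-0.082). Rps15, Rps16 (-0.071), Rps18 (-0.12), Rps20 (-0.060), Rps25 (-0.12, but -0.044 on its brightest probe), Rps29 (-0.065) and Rpsa (-0.056) were also below 0. Rps12 (0.012) and Rps27a (0.047), which is made as a fusion with ubiquitin, lay above 0 with Rps10, but Rps27a was at -0.028 on its brightest probe. Cyclic loess turned Rps2, Rps16, Rps20, Rps23, Rps26, Rps28 and Rps29 above 0, to values from 0.0019 (Rps2) to 0.071 (Rps28). Rps3, Rps15, Rps18, Rps19, Rps25 and Rpsa stayed below 0 in that setting. Rps6, the substrate of the S6 kinases, had 52875 and 47169 (-0.12), and its 3 probes ran from -0.15 to -0.11.

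All 4 X-linked members lay below 0, from -0.14 for Rpl36a to -0.032 for Rps4x, with Rpl39 at -0.12 and Rpl10 at -0.037. Below 0 were also 82.6% of all members and 80.5% of the other bright genes. Under cyclic loess Rpl10 (0.042) and Rps4x (0.043) turned above 0, as they did under quantile normalization (0.0069 and 0.0056). Of their paralogs on other chromosomes, Rpl10l, which stands in for Rpl10 in male meiosis, was at 0.045, Rpl39l at 0.0049, Rpl36al at -0.017 and Rps4l, a transcribed pseudogene in RefSeq, at -0.010. Among other pairs, Rpl22 was at -0.0046 and Rpl22l1 at -0.11. Rpl3 was at -0.040 and Rpl3l at -0.042 (0.035 and -0.12 under cyclic loess). Rpl7 was at -0.018 and Rpl7l1 at 0.049, but Rpl7 was at 0.059 under cyclic loess and 0.029 on its brightest probe. Rpl22 (0.054), Rpl36al (0.046) and Rps4l (0.057) also turned above 0 under cyclic loess. The 9 paralogs, the retrogene Rps23rg1 (-0.075) among them, had a median of -0.017, with 6 below 0. When these 9 genes were left out, which was decided with the data in view, the other 77 had a median of -0.060 and an SD of 0.061. Copies of a gene can share signal on a probe, so values of paralogs are uncertain.

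Probes of the same gene often disagreed. Of the 86 genes, 52 had several measured probes, up to 7 for Rpl17. The pooled SD between probes of a gene was 0.064. In 29 genes all probes lay below 0, in 3 genes all lay above, and in 20 genes they lay on both sides. With probes as units, 77.5% of member probes lay below 0, beside 51.3% of all named probes and 79.0% of the other bright probes. How the probes of other genes split by gene was not tested. Rpl17 had the widest range, from -0.17 to 0.078 over 7 probes, followed by Rplp0, Rpsa (-0.13 to 0.081 over 4 probes), Rps15a (-0.095 to 0.11 over 3 probes) and Rpl14 (-0.19 to 0.0045 over 2 probes). Brightness varied far more between probes of a gene than between the cells. In 21 genes the probes spanned at least 2 on the log2 scale, and in Rps27a they spanned 11.2, from signals of 157 and 170 for its dimmest probe to 385175 and 366886 for its brightest. In Rps15a the dim probe (114 and 120) gave the value of 0.11, and its 2 bright probes gave -0.095 and -0.091. On the brightest probe alone, Rplp0 was at 0.15, Rps2 at 0.015 and Rpl14 at 0.0045, while Rps18 was at -0.19, Rpsa at -0.13 and Rpl10 at -0.10.

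Differences were also set beside the start sites. The 14 genes with the run of C and T at the start had a median of -0.064 (SD 0.083, from -0.22 to 0.055), and the other 51 genes with an entry had -0.059 (SD 0.058). When such a stretch of 5 letters could lie anywhere between 5 bases before and 10 after the annotated start, it was found in 30 genes (46.2%), against 21.2% of all genes. These had a median of -0.075 (SD 0.067), and the other 35 genes had -0.045 (SD 0.060). The letters CCGGAAG or CTTCCGG, the core of sites for ETS factors such as Gabpa, were found on either strand within the promoter window of the table in 25 of the 65 genes (38.5%), against 9.93% of all genes in the table. These 25 had a median of -0.056 and the other 40 a median of -0.070. The letters AAGATGG or CCATCTT, which are part of sites for Yy1, were found in 10 genes (15.4%), against 7.28% of all genes, with medians of -0.056 and -0.059. In 8 genes the run at the start and the letters CCGGAAG or CTTCCGG were both present, and at no start were the run and CTTCCGG the same letters. How many of all genes hold both was not counted, so the 8 have no background beside them. A match of letters is not a site in use, and none of these differences between medians was tested.

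Genes that make, assist or control ribosomes were compared as lists. Beside their counts stand the shares over all named genes, 50.8% below 0, 6.85% at least 0.2 lower and 12.7% at least 0.2 higher, and the 80.5% of the other bright genes below 0. Not all lists were bright. The brightest 10% held 15 of the 30 biogenesis factors, 27 of the 34 translation factors and 3 of the 28 polymerase genes. It held all 9 associated genes measured and 2 of the 20 growth regulators. The share below 0 was 71.2% in the next 10% of genes by brightness and 61.0% in the 10% after that. The 80.5% is thus not a like background for the dimmer lists. The 30 factors of ribosome biogenesis had a median of -0.035, with 20 below 0 (66.7%) and none at least 0.2 apart, from Nop2, an rRNA methyltransferase, at -0.17 to Nob1, a nuclease that trims the rRNA of the small subunit, at 0.18. Among them Npm1 was at -0.018, Fbl at -0.030 and Ncl at 0.066. The 34 initiation and elongation factors had a median of -0.038, with 27 below 0 (79.4%) and none at least 0.2 apart, from Eif5a (-0.18) to Eif5b (0.082). Eif5b was the dimmest gene of this list, at log2 signals of -5.97 and -5.88. Eef1a1, Eef2, Pabpc1 and Tpt1, whose mRNAs also carry a 5′ TOP, were at -0.013, -0.064, -0.064 and 0.0059. The 28 genes of RNA polymerases I and III and their factors, which transcribe rRNA, had a median of -0.033, with 18 below 0 (64.3%) and none at least 0.2 apart, and Gtf3c5 was the lowest (-0.18). Of 10 symbols for ribosome-associated proteins 9 were measured, Gnb2l1 being the older name of Rack1, with a median of -0.041 and 8 below 0 (88.9%). Fau, which encodes a ribosomal protein fused to a ubiquitin-like sequence, was at -0.085, Rack1 at -0.028, Serbp1 at 0.040 and Sec61b, the only one at least 0.2 lower, at -0.21. The 20 transcription factors and growth regulators had a median of -0.022 with 11 below 0 (55%). Myc was at 0.0093, Mycn at -0.045, Mtor at -0.044 and Larp1, which binds 5′ TOP mRNAs, at 0.075. The lowest was Eif4ebp1, a target of mTOR, at -0.21, the only one at least 0.2 lower, and the highest Tsc2, at 0.19. Tsc2 was also the dimmest gene of its list, at log2 signals of -4.13 and -3.94. The medians of biogenesis factors, translation factors, associated genes and growth regulators turned above 0 under cyclic loess and quantile normalization.

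**Figure D5:**
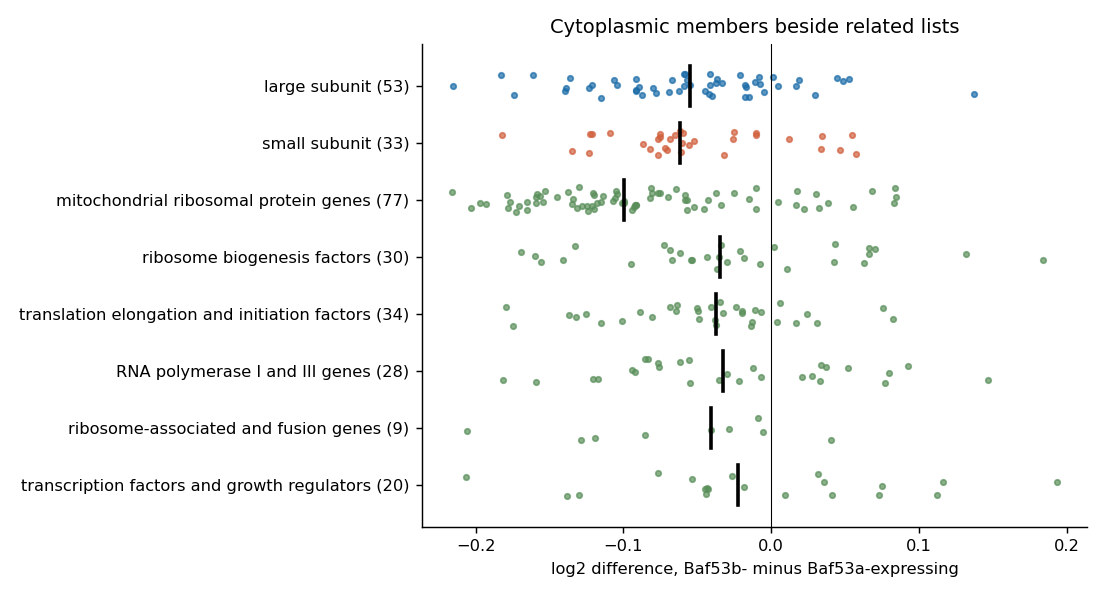
Log2 difference (horizontal axis) of each gene in the subunits and in related lists, 1 dot per gene with the median as a black bar and the number of genes in brackets. The mitochondrial ribosomal protein genes have the lowest median (-0.10), and the other lists lie between -0.062 and -0.022.

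Mitochondrial ribosomes are made of proteins from another set of nuclear genes. The 77 mitochondrial ribosomal protein genes measured of 78 had a median of -0.10 (SD 0.074), with 65 below 0 (84.4%, beside 82.6% of the cytoplasmic members) and 2 at least 0.2 lower (beside 6.85% of all named genes), from Mrpl34 (-0.22) to Mrpl9 (0.085). Their median lay below that of the cytoplasmic members in the scaling used and also under quantile normalization (-0.053 against -0.019), centring on the median (-0.15 against -0.11), cyclic loess (-0.055 against 0.011) and normexp (-0.078 against -0.047). The 37 of them in the brightest 10% had a median of -0.13, with 35 below 0 (94.6%), beside a median of -0.076 and 80.5% below 0 for all genes of the brightest 10% other than the cytoplasmic members. With 1 array per condition this distance could not be tested.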

How the data were processed

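The authors extracted both arrays (Whole Mouse Genome 4 × 44 K, 1 colour) with Agilent Feature Extraction 11.0.1.1, a version also given in the submitters' processing notes, and deposited the intensity of each spot after background subtraction and spatial detrending, not normalized between arrays, with quality flags for each spot. They also deposited a table of 1 ratio per probe. Over 30479 probes each ratio equalled the processed signal divided by 1 number per array (1160 and 1126) within 0.1%. The scaling is not named in the sources used here. The arrays shared 1 slide (positions 3 and 4) and scan 1.

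Control spots and outlier spots (173 and 143, none of them on the 183 member spots of either array) were left out, and log2 signals were averaged first by probe and then by gene. A probe was measured when at least 50% of its spots were flagged well above background, which held for 75.2% and 76.4% of probes. The signal of a gene with several probes is their geometric mean. The array design is annotated on mm9. Names came from RefSeq accessions (GRCm38.p6), matching 27410 of 39411 probes. The members and lists were chosen with earlier results of these data known. Named were the 5 lowest and 5 highest members, the 5 with the widest range between probes, members listed by role, and the extremes of each list, except a few genes that are not reported here. Other genes named in the lists were chosen after their values were seen. Counts use 2-fold and 0.2 or 0.1 on the log2 scale.

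Python 3.11.15, numpy 2.4.6, pandas 2.3.3, R 4.3.3 and limma 3.58.1 were used, and the steps were tested on simulated data. Alternatives were cyclic loess, quantile normalization, centring on the median, normexp (offset 50, on median spot signals), no or a stricter filter, a weaker detection flag, outlier spots kept, the brightest probe of each gene, probes as units and the authors' table of ratios. The number of arrays limits the precision.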

Additional observations from a re-analysis of the deposited data

How the results depend on the processing

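When a median, an SD or a count was recomputed under each alternative, 151 values kept their sign and moved by less than 0.060 (the SD of a difference between 2 single spots) or, for counts, by no more than 1.5 times, while 12 changed sign and 8 counts moved further. Some alternatives could hardly move a value. No member spot was an outlier, the authors' ratios were the same signal divided by 1 number per array, and centring on the median shifts all genes alike. The limit of 0.060 is also about as large as the median of all members (-0.059). The move of that median to -0.019 under quantile normalization therefore counts among the 151, which is not a measure of robustness. Under cyclic loess the median turned to 0.011 for all members, 0.016 for large and 0.0080 for small subunit genes, 0.022 for biogenesis factors, 0.018 for translation factors, 0.020 for ribosome-associated genes and 0.015 for growth regulators. Members below 0 fell to 31 and those at least 0.2 higher rose to 1. Under quantile normalization the medians of the last 4 lists turned to 0.025, 0.0098, 0.0032 and 0.0076, and under normexp that of the growth regulators to 0.0034. The cause was not tested. The count of members at least 0.2 lower, 1 as reported, was 0 under cyclic loess, normexp and quantile normalization, 5 when centred on the median and 3 with probes as units. With probes as units 134 of 173 lay below 0, since more units enter. Of the values of single named genes, 479 stayed within 0.060 and 60 moved further, 43 of them under cyclic loess. The limits given above for the 151 apply to the 479 too. No paired analysis was possible because each condition had 1 array, which also leaves no replicate to omit.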

Other observations

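The genes left out by name were measured too. All 10 genes of the S6 kinase families were seen on both arrays, from -0.11 for Rps6ka1 to 0.34 for Rps6kc1. Rps6kb1, which phosphorylates Rps6, was at 0.11 and Rps6kb2 at -0.076. The 3 measured probes of Rps6kb1 disagreed, at -0.031, 0.098 and 0.27, the last from the dimmest of them. Rps27l, a paralog of Rps27 and a target of p53, was at 0.042, while Rps27 was at -0.076. Rps19bp1 was at -0.12. The 3 pseudogene symbols on the array lay below 0, as did their parent genes. Below 0 were also 82.6% of all members, 80.5% of the other bright genes and 50.8% of all named genes. Rpl31-ps12 was at -0.071 (Rpl31 at -0.16), Rpl34-ps1 at -0.084 (Rpl34 at -0.059) and Rps15a-ps6 at -0.067 (Rps15a at -0.025). Probes for pseudogenes may take signal from the parent transcript, which was not tested.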
